A study of Mus musculus with 11 samples.

Results

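The 9 genes described here encode ion transporters of the colonic epithelium and enzymes that supply bicarbonate and protons. They are the anion transporters Slc26a3 and Slc26a2, the sodium-proton exchangers Slc9a3 and Slc9a2, the sodium-bicarbonate cotransporter Slc4a4, the carbonic anhydrases Car1, Car2 and Car4, and the anion channel Cftr. They were chosen by name, with earlier results of these data known, as the transcript clusters whose annotated gene symbol is exactly one of these. Each of the 9 is read by 1 transcript cluster, a set of probes spread along the gene. They are 9 of 19944 genes tested in the rectal mucosa of 11 mice, with 1 Affymetrix Mouse Gene 1.0 ST array per mouse. A level below is the deposited log2 value of the gene's transcript cluster on an array, and a difference of 1 is a doubling.

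The α6ΔIEC-TAM mouse is a line in which tamoxifen induces deletion of Itga6, the gene of integrin α6, in intestinal epithelial cells. Integrin α6 pairs with integrin β4 to hold epithelial cells to the basement membrane. The mutant tamoxifen group holds 4 mutant mice given tamoxifen by gavage, 1 of them male. The mutant NaCl group holds 4 mutant mice gavaged with NaCl in its place, so not induced, 1 of them male, and the control tamoxifen group holds 3 wild-type mice given tamoxifen, 2 of them male. Gavage began at 8 weeks of age, with tamoxifen at 10 mg per day on alternate days over 5 days, and the mucosa was collected at 10 weeks, 15 days from the start of gavage. The sources used here do not name the promoter that drives the recombinase, the deleted exons or the recombined share of cells. With no wild-type mice given NaCl, the effect of the drug without the mutation was not measured. Mutant NaCl and control tamoxifen mice differ in both genotype and drug.

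The surface epithelium of the colon absorbs sodium chloride by pairing a sodium-proton exchanger with a chloride-bicarbonate exchanger in the apical membrane. Carbonic anhydrases turn carbon dioxide and water into the protons and bicarbonate that these exchangers trade for sodium and chloride. Cftr does the opposite work, releasing chloride and bicarbonate into the lumen, and loss of SLC26A3 in people causes congenital chloride diarrhoea.

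Array medians lay between 7.29 and 7.35, and arrays correlated at 0.992 to 0.996 within groups and 0.984 to 0.996 between them. Itga6, the targeted gene, went against the label: its levels were 11.75 to 11.93 in the arrays labelled mutant tamoxifen, against 11.28 to 11.49 in mutant NaCl arrays and 11.15 to 11.52 in control tamoxifen arrays. Its signal was 1.34-fold higher than in control tamoxifen arrays (limma, log2 difference 0.42, SE 0.096, adjusted p = 0.00949). Its 1 transcript cluster pools probes along the gene, and cells other than epithelium carry it too, so this value does not check the deletion. Every direction below rests on the group labels. Limma p-values set a group difference against the spread between these animals, moderated over all genes, and the number of arrays limits the precision. Each comparison was fitted with limma with a term for sex over all 19944 genes, so that a fitted difference can depart slightly from the difference between group means. Called means a Benjamini-Hochberg adjusted p under 0.05.

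Upstream sequence is shown for 4 of the genes because the promoters of genes that fell and of genes that were not called can be set side by side. The RefSeq promoter table of GRCm38.p6 holds windows for 5 of the 9, which are Slc26a3, Slc9a3, Slc4a4 with 2 start sites, Car4 and Cftr. For Slc26a3, Slc9a3 and Slc4a4 these windows lie downstream of where the annotated gene begins, so starts further upstream were not read. Each line gives the 250 bases before an annotated start, 5′ to 3′, and capitals mark the letters of a searched motif on either strand.
Slc26a3 (chr12:31437969-31438218, plus strand): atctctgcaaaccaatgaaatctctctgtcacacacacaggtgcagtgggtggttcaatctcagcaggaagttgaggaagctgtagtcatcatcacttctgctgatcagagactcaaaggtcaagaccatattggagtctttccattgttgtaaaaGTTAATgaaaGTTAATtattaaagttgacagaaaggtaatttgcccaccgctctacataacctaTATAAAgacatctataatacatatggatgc
Car4 (chr11:84957504-84957753, plus strand): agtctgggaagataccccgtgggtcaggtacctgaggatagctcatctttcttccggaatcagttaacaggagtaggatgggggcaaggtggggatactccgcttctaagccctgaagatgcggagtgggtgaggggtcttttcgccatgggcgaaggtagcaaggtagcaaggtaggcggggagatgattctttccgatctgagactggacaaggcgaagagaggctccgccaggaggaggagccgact
Slc9a3 (chr13:74121163-74121412, plus strand): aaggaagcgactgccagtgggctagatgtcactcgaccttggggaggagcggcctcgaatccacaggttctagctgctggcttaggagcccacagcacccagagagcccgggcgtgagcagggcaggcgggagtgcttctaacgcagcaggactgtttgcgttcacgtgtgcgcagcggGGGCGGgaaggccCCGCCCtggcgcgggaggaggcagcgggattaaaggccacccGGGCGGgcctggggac
Cftr (chr6:18170437-18170686, plus strand): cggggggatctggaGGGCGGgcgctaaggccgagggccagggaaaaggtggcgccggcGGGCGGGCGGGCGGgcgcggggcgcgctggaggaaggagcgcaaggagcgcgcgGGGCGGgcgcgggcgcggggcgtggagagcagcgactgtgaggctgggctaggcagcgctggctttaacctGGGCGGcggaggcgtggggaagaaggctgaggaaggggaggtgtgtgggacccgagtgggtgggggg

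The letters searched on both strands were TTTATG for CDX factors, CAAAGT for HNF4, TATAAA for the box recognised by the basal machinery, AGATAA for the factors named after its core, GTTAAT for HNF1 and GGGCGG for the GC box. The Slc26a3 window was the poorest in GC of the windows found for these genes, at 38.8%, and held 1 CG pair. It carried TATAAA at -30 to -25 counted back from the start, and GTTAAT at -94 to -89 and at -84 to -79. Among all 32851 windows of the same length, 12.4% held TATAAA and 6.43% held GTTAAT on either strand. The Cftr window was 76.4% GC with 30 CG pairs and 6 matches to GGGCGG, 3 of which overlap one another in a row, and the Slc9a3 window was 67.6% GC with 19 CG pairs and 3 matches, where 32.7% of all windows held at least 1. The Car4 window was 56.4% GC with 11 CG pairs and held none of the 6 motifs. The 2 Slc4a4 windows differed from each other: one was 82.0% GC with 44 CG pairs, 1 CAAAGT (in 12.6% of all windows) and 1 GGGCGG, and the other was 48.8% GC with 3 CG pairs and no searched motif. TTTATG was found in 10.8% of all windows and AGATAA in 9.99%. The median window was 52.4% GC with 6 CG pairs, and the quartiles of GC were 45.2% and 61.2%. Windows above the upper quartile of GC belonged to both genes that were not called and to Slc4a4, a gene that fell. A match is a run of letters and does not show that a protein binds there.

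In the rectal mucosa of mutant mice given tamoxifen, 7 of the 9 genes fell and none rose, against control tamoxifen mice and against mutant NaCl mice alike. The fall was deepest for Slc4a4, at 4.70-fold against control tamoxifen, followed by Slc26a3 at 3.18-fold, Slc26a2 at 2.50-fold, Car4 at 2.36-fold, Car2 at 2.16-fold, Slc9a2 at 1.81-fold and Car1 at 1.25-fold. Slc9a3 and Cftr were not called in either comparison. Over all genes, 11.8% were called lower and 12.9% higher against control tamoxifen, and 10.7% lower and 12.5% higher against mutant NaCl. The median difference of the 9 genes was -1.11 against control tamoxifen, where the median of all genes was -0.02, and -0.86 against mutant NaCl, where it was -0.01. The 2 comparisons share the mutant tamoxifen arrays and are not independent of each other. Because the 9 genes were chosen with earlier results known, the shares over all genes describe them and do not test them as a set.

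**Figure D1:**
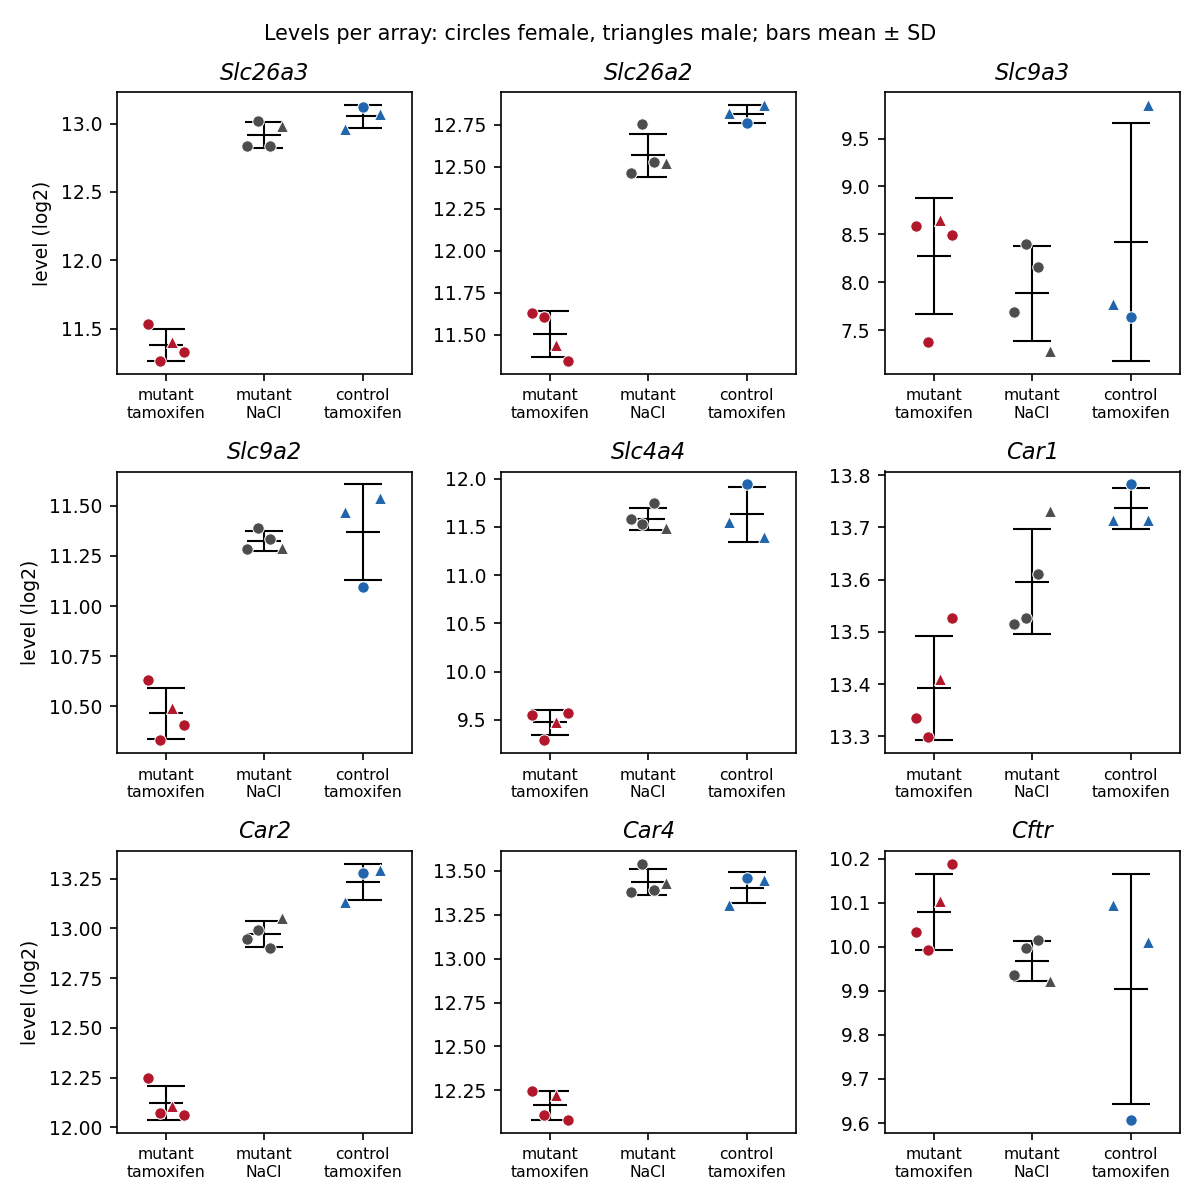
Levels of the 9 genes on each array (log2), with mutant tamoxifen left of mutant NaCl and control tamoxifen; circles are females, triangles males, and bars give the mean ± SD (n = 4, 4 and 3). The scales differ between panels and do not start at 0. The mutant tamoxifen arrays lie below every other array for Slc26a3, Slc26a2, Slc9a2, Slc4a4, Car2 and Car4, while Slc9a3 and Cftr overlap between groups.

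Slc26a3 (transcript cluster 10395201), the apical chloride-bicarbonate exchanger, had levels of 11.53, 11.26, 11.40 and 11.33 in mutant tamoxifen mice, against 12.84, 13.02, 12.84 and 12.98 in mutant NaCl mice and 12.96, 13.13 and 13.07 in control tamoxifen mice. All 4 mutant tamoxifen arrays lay more than a log2 unit below the lowest of the other 7, while the mutant NaCl and control tamoxifen arrays interleaved. It averaged 11.38 ± 0.116 in mutant tamoxifen mice (SD, n = 4), 12.92 ± 0.0945 in mutant NaCl mice (SD, n = 4) and 13.05 ± 0.0852 in control tamoxifen mice (SD, n = 3). By limma it fell by 1.67 on the log2 scale against control tamoxifen (SE 0.078, adjusted p = 2.65e-06) and 2.90-fold against mutant NaCl (log2 difference -1.54, SE 0.068, adjusted p = 7.92e-07).

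Slc26a2 (transcript cluster 10459183), a sulfate transporter of the same family that also exchanges chloride, had levels of 11.63, 11.61, 11.44 and 11.34 in mutant tamoxifen mice, against 12.47, 12.75, 12.53 and 12.53 in mutant NaCl mice and 12.82, 12.76 and 12.87 in control tamoxifen mice. The 3 groups did not overlap at all, with mutant NaCl between the others. It fell by 1.32 on the log2 scale against control tamoxifen (limma, SE 0.089, adjusted p = 1.75e-05), and 2.09-fold against mutant NaCl (log2 difference -1.06, SE 0.077, adjusted p = 2.02e-05).

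Slc4a4 (transcript cluster 10523021), the basolateral cotransporter that brings sodium and bicarbonate into the epithelial cell, had levels of 9.55, 9.29, 9.48 and 9.57 in mutant tamoxifen mice, against 11.58, 11.53, 11.74 and 11.48 in mutant NaCl mice and 11.55, 11.94 and 11.40 in control tamoxifen mice. All 4 mutant tamoxifen arrays lay more than a log2 unit below every other array, and the mutant NaCl values lay inside the range of the control tamoxifen values. It fell by 2.23 on the log2 scale against control tamoxifen (limma, SE 0.111, adjusted p = 2.72e-06) and 4.31-fold against mutant NaCl (log2 difference -2.11, SE 0.096, adjusted p = 9.67e-07).

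Of the 2 sodium-proton exchangers, Slc9a2 was called in both comparisons and Slc9a3 in neither, which alone does not show that they changed unequally. Slc9a2 (transcript cluster 10345855), which encodes the apical exchanger NHE2, had levels of 10.63, 10.33, 10.49 and 10.41 in mutant tamoxifen mice, against 11.28, 11.39, 11.33 and 11.29 in mutant NaCl mice and 11.47, 11.10 and 11.54 in control tamoxifen mice. Its mutant tamoxifen arrays were below all the others, and 1 control tamoxifen array, the female, was the lowest of those others. By limma its log2 difference was -0.85 against control tamoxifen (SE 0.100, adjusted p = 0.000414) and -0.86 against mutant NaCl (SE 0.087, adjusted p = 0.000142), a 1.81-fold fall in each.

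Slc9a3 (transcript cluster 10406176), which encodes NHE3, the main sodium-absorbing exchanger of the gut, had levels of 8.58, 7.37, 8.65 and 8.49 in mutant tamoxifen mice, against 7.69, 8.40, 8.15 and 7.29 in mutant NaCl mice and 7.77, 7.63 and 9.85 in control tamoxifen mice. The spread within each group was wider than for any other of the 9 genes, with an SD of 0.602 in mutant tamoxifen, 0.494 in mutant NaCl and 1.24 in control tamoxifen mice, and the groups overlapped. In every group its mean was the lowest of the 9 genes, and on several arrays its level lay under 7.95, the median over all genes and arrays. Its limma log2 difference was -0.04 against control tamoxifen (adjusted p = 0.968, 95% confidence interval -1.25 to 1.17) and 0.39 against mutant NaCl (adjusted p = 0.620, interval -0.66 to 1.44). A log2 difference of 1 lies inside both intervals and one of -1 inside the first, so these arrays do not settle whether Slc9a3 changed.

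The 3 carbonic anhydrases fell, with smaller fitted log2 differences for Car1 than for Car4 and Car2. Car4 (transcript cluster 10379866), the enzyme anchored to the outer face of the apical membrane, had levels of 12.25, 12.11, 12.22 and 12.08 in mutant tamoxifen mice, against 13.38, 13.54, 13.39 and 13.43 in mutant NaCl mice and 13.31, 13.46 and 13.45 in control tamoxifen mice. Every mutant tamoxifen array was more than a log2 unit below every other. Its limma log2 difference was -1.24 against control tamoxifen (SE 0.064, adjusted p = 3.27e-06) and -1.27, a 2.41-fold fall, against mutant NaCl (SE 0.055, adjusted p = 7.92e-07). Car2 (transcript cluster 10490923), the fast cytosolic enzyme, had levels of 12.25, 12.07, 12.10 and 12.06 in mutant tamoxifen mice, against 12.95, 12.99, 12.90 and 13.05 in mutant NaCl mice and 13.13, 13.28 and 13.29 in control tamoxifen mice. As for Slc26a2, the 3 groups were separate, with mutant NaCl in the middle. The limma log2 difference of Car2 was -1.11 against control tamoxifen (SE 0.064, adjusted p = 6.38e-06) and -0.85, a 1.80-fold fall, against mutant NaCl (SE 0.055, adjusted p = 1.22e-05).

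Car1 (transcript cluster 10497337), the other cytosolic enzyme and a known product of colonic epithelium and red blood cells, had levels of 13.33, 13.30, 13.41 and 13.53 in mutant tamoxifen mice, against 13.52, 13.53, 13.61 and 13.73 in mutant NaCl mice and 13.71, 13.78 and 13.71 in control tamoxifen mice. The mutant tamoxifen arrays were below the control tamoxifen arrays and overlapped with the mutant NaCl arrays. By limma Car1 fell by 0.32 against control tamoxifen (SE 0.066, adjusted p = 0.00586), and without the second control tamoxifen array, the female, the difference was -0.25 (adjusted p = 0.0681). Against mutant NaCl it fell 1.15-fold (log2 difference -0.20, SE 0.057, adjusted p = 0.0261), a call lost in 7 of 22 other settings, with female arrays alone (-0.16, adjusted p = 0.116) among them. The highest value on any array lay between 14.34 and 14.42, not far above Car1.

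Cftr (transcript cluster 10536563), the apical channel that secretes chloride and bicarbonate, had levels of 10.03, 9.99, 10.10 and 10.19 in mutant tamoxifen mice, against 9.93, 10.00, 10.01 and 9.92 in mutant NaCl mice and 10.10, 9.61 and 10.01 in control tamoxifen mice. The groups overlapped, and the lowest value belonged to the female control tamoxifen mouse. The limma log2 difference was 0.23 against control tamoxifen (SE 0.100, adjusted p = 0.122, 95% confidence interval 0.01 to 0.45) and 0.11 against mutant NaCl (SE 0.086, adjusted p = 0.408, interval -0.08 to 0.30). Both intervals lie above the fitted differences of all 7 genes that fell, in the same comparison.

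**Figure D2:**
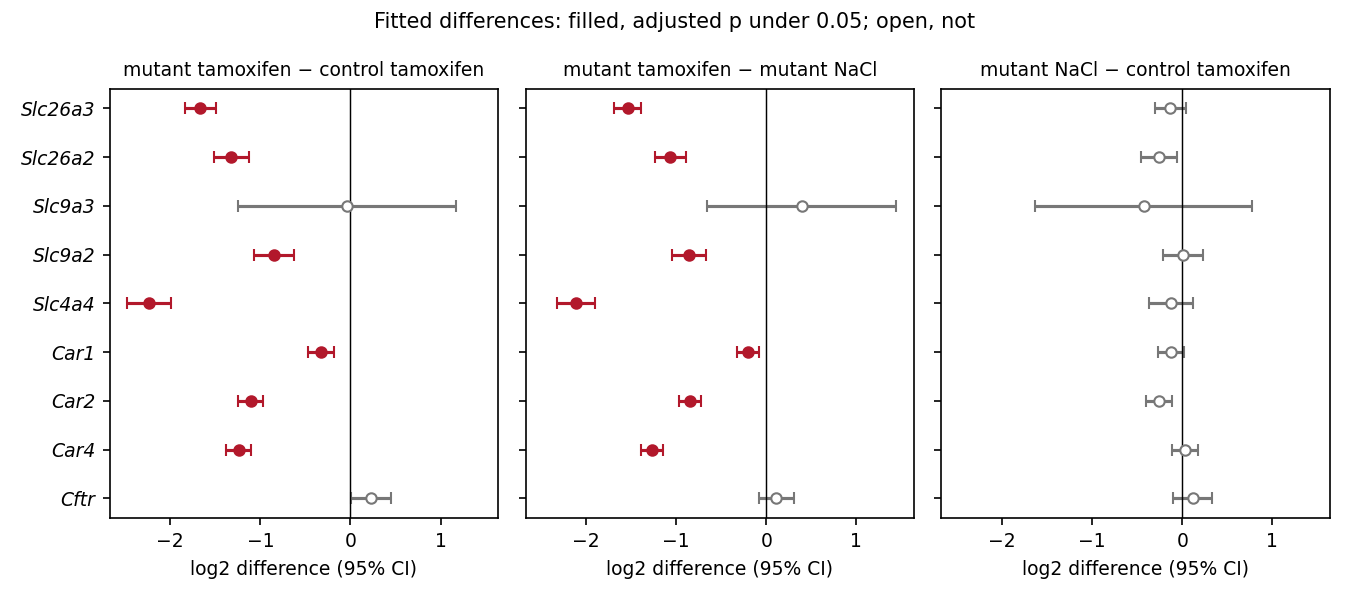
Fitted log2 differences of the 9 genes (x axis) with 95% confidence intervals, for mutant tamoxifen minus control tamoxifen, mutant tamoxifen minus mutant NaCl, and mutant NaCl minus control tamoxifen; filled points have an adjusted p under 0.05. Slc4a4 is furthest to the left in the first 2 panels, at -2.23 and -2.11, Slc9a3 has the widest intervals, and no point of the third panel is filled.

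Of the 9 genes, 7 had all mutant tamoxifen arrays below all control tamoxifen arrays, where 20.1% of all genes did, and 6 had them below all mutant NaCl arrays, where 12.6% of all genes did. Car1 was the gene that separated from control tamoxifen and overlapped with mutant NaCl. Mutant NaCl against control tamoxifen gave no call among the 9, and 0% of all genes were called lower and 0% higher. At an unadjusted p under 0.05 there were 2 of the 9 genes and 1625 of all genes (8.15%). The 2 were Car2 (limma log2 difference -0.26, adjusted p = 0.510) and Slc26a2 (-0.26, adjusted p = 0.539), and in both the mutant NaCl arrays lay below all control tamoxifen arrays, as they did for 5.32% of all genes. The fitted differences of the other 7 ran between -0.43 for Slc9a3 and 0.12 for Cftr. Males and females did not differ past the threshold in any of the 9, with fitted male minus female differences between -0.19 and 0.26 and adjusted p of 0.844 or more.

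Whether levels of members shifted by unequal amounts was asked with the difference between 2 genes' levels within an array. The levels of 2 transcript clusters cannot be compared as such, but their difference can be followed from group to group on the deposited log2 scale. RMA can compress large differences, and by unequal amounts for different probes. A shift on that scale therefore need not be a shift of the same size in RNA, least of all for pairs with Car1, whose levels lie near the top. Car4 was near the top too, with means of 13.44 in mutant NaCl and 13.41 in control tamoxifen mice. The 4 mutant tamoxifen arrays were set against the 7 others in 7 pairs with a two-sided exact permutation test over arrays, whose smallest possible p is 0.00303 with 330 regroupings, and p-values were adjusted over the 7 pairs. Slc26a3 changed further down than Slc26a2, with a difference of changes of -0.42 (adjusted p = 0.0053). Against the other 7 arrays, Car4 and Car2 both changed further down than Car1, with differences of -0.99 and -0.70 (adjusted p = 0.0053 each), and Car4 further than Car2, with -0.29 (adjusted p = 0.00848). Slc26a3 and Cftr parted by -1.73 (adjusted p = 0.0053) with no overlap between arrays, and Slc26a3 and Slc9a3 by -1.76 (adjusted p = 0.0106) with overlap. The 2 sodium-proton exchangers parted by 1.04, Slc9a3 over Slc9a2, which did not pass (adjusted p = 0.0545). That pair turned on single arrays: without the third control tamoxifen array, which had the highest Slc9a3, the difference was 1.30 (exact permutation, adjusted p = 0.00556), and without the second mutant tamoxifen array it was 1.29 (adjusted p = 0.0417). Against the mutant NaCl arrays alone, all 7 pairs passed with no overlap, each at the smallest p that 70 regroupings allow (0.0286, adjusted p = 0.0286), and the sodium-proton exchangers parted by 1.25. Against the control tamoxifen arrays alone, 0 of the 7 passed. There 4 pairs reached the smallest p that 35 regroupings allow, which is also 0.0286, and had an adjusted p of 0.05. The other 3 pairs there were Car4 with Car2 (exact permutation, p = 0.0571), Slc26a3 with Slc9a3 (p = 0.0857) and Slc9a3 with Slc9a2 (p = 0.257). The gap between Car4 and Car2 was -0.42 against mutant NaCl alone and -0.13 against control tamoxifen alone (adjusted p = 0.08), so the pooled -0.29 stands between 2 unlike values.

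**Figure D3:**
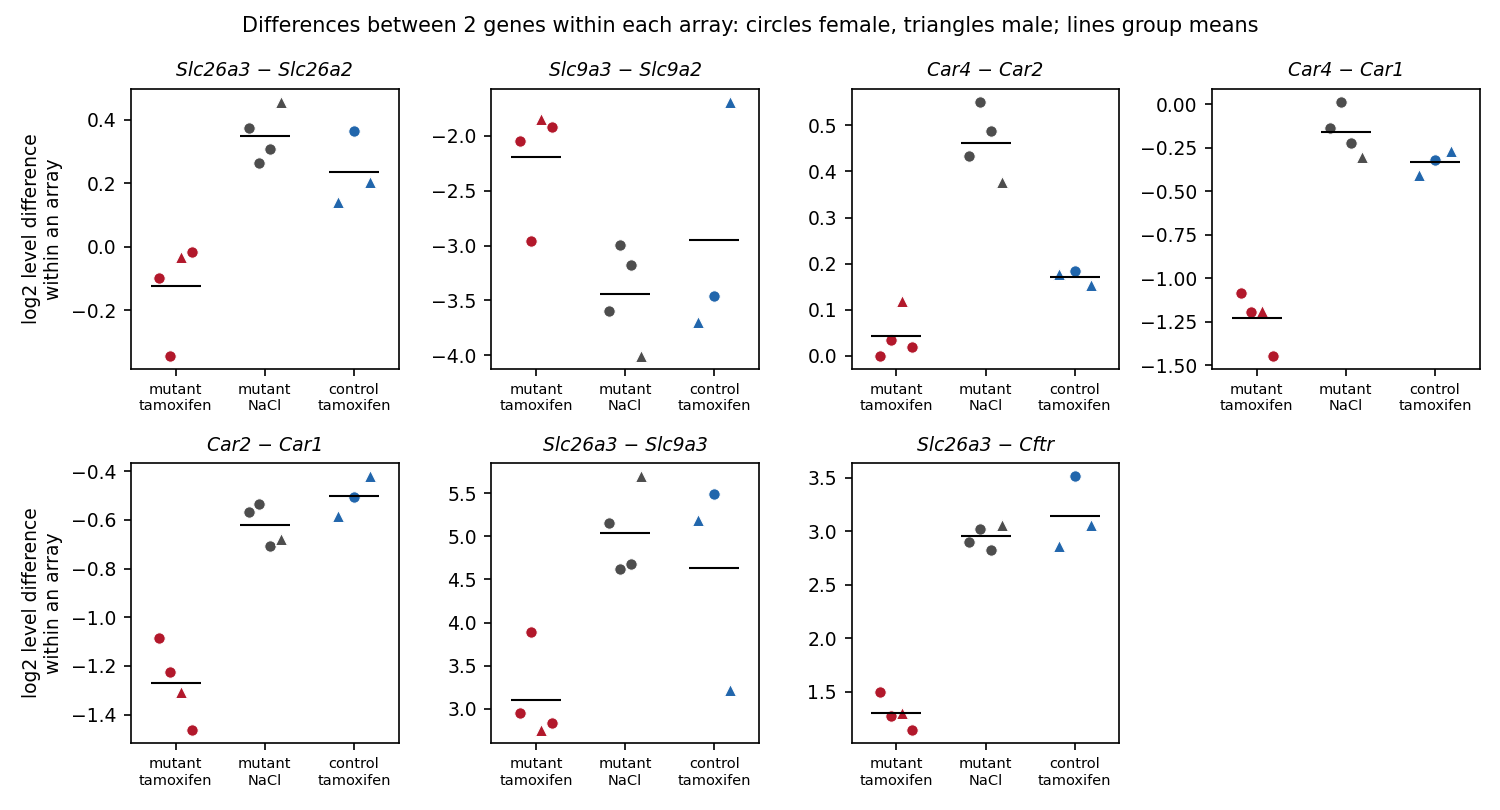
Log2 level of the first gene minus that of the second on each array (y axis) for the 7 pairs, with mutant tamoxifen left of mutant NaCl and control tamoxifen; circles are females, triangles males, and lines are group means. The mutant tamoxifen arrays lie apart from the other 7 in Slc26a3 minus Slc26a2, Car4 minus Car2, Car4 minus Car1, Car2 minus Car1 and Slc26a3 minus Cftr, and overlap with them in both pairs that hold Slc9a3.

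Profiles over the 11 arrays, each centred on its gene's mean, were compared by their root mean square difference on the log2 scale. This measure needs both shape and size to be alike, and the profiles are set mostly by the gap between mutant tamoxifen and the other arrays. Among the 9 genes, the nearest to each other were Slc26a2 and Car2 (0.141), Slc26a2 and Car4 (0.145), Slc9a2 and Car2 (0.161), and Slc26a3 and Car4 (0.179). Outside the 9, the genes nearest to Slc4a4 were Selenbp1 (0.198), Sycn (0.276) and Selenbp2 (0.291), and those nearest to Slc26a3 were Selenbp2 (0.114), Cyp2d22 (0.136) and Sycn (0.159). Selenbp1 and Selenbp2 are near-identical copies, so their probes may not tell them apart. Slc26a2 was closest to Slco2a1 (0.128), Cyp2d22 (0.129) and Retsat (0.129), and Car4 to Cyp2d22 (0.136), Slco2a1 (0.152) and Tns4 (0.163).

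In the order of genes along the chromosome, Car1 and Car2 lie with Car13 and Car3 in the sequence Car13, Car1, Car3, Car2. The fitted differences against control tamoxifen in that order were 0.28 (adjusted p = 0.150), -0.32, -1.32 (adjusted p = 0.266) and -1.11, so the 2 genes called are interleaved with 2 that were not. Slc9a4, another sodium-proton exchanger beside Slc9a2, had a fitted difference of -0.04 against control tamoxifen (adjusted p = 0.727), and Slc26a4, next but one to Slc26a3, had 0.05 (adjusted p = 0.489).

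The other genes of these pathways were counted from 5 lists, of which 61 of 65 genes were measured. Against control tamoxifen, 10 rose and 9 fell, where 12.9% of all genes were called higher and 11.8% lower. Against mutant NaCl 9 rose and 11 fell, where 12.5% of all genes were called higher and 10.7% lower. None was called between mutant NaCl and control tamoxifen. The same shares stand beside the counts per list below, marker lists included. Among the 16 other Slc26 and Slc4 genes measured from the lists, the 1 called gene went up: Slc4a11, best known from the endothelium of the cornea. It shares a family name with Slc4a4, which does not show that it carries bicarbonate. Slc4a11 had levels of 8.36, 8.17, 8.57 and 9.15 in mutant tamoxifen mice, against 6.39, 6.57, 6.36 and 6.68 in mutant NaCl mice and 6.36, 6.38 and 6.48 in control tamoxifen mice. It rose by 2.19 on the log2 scale against control tamoxifen (limma, adjusted p = 0.000106) and by 2.06 against mutant NaCl (adjusted p = 4.37e-05). The other 15 had fitted differences between -0.20 and 0.05 against control tamoxifen, and 14 of the 16 had mean levels under 7.95, the median gene of these arrays.

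Of 10 other sodium-proton exchangers and scaffold proteins, 1 fell against control tamoxifen. It was Slc9a3r1, which encodes NHERF1, a scaffold that holds Slc9a3 and Cftr proteins at the apical membrane, with a mean level of 11.21 ± 0.0491 in mutant tamoxifen mice (SD, n = 4), 11.47 ± 0.0815 in mutant NaCl mice (SD, n = 4) and 11.51 ± 0.155 in control tamoxifen mice (SD, n = 3). Its limma log2 difference was -0.29 against control tamoxifen (adjusted p = 0.0207). Against mutant NaCl 3 of the 10 fell.

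Of 13 other carbonic anhydrases, 3 rose and 1 fell against control tamoxifen, and 3 rose and 2 fell against mutant NaCl. Car5b, a mitochondrial enzyme, averaged 8.70 ± 0.26 in mutant tamoxifen mice (SD, n = 4), 7.90 ± 0.267 in mutant NaCl mice (SD, n = 4) and 7.74 ± 0.188 in control tamoxifen mice (SD, n = 3), and rose by 0.98 against control tamoxifen (limma, adjusted p = 0.00345). Car12, a membrane enzyme, rose by 0.51 against control tamoxifen (adjusted p = 0.0200), and Car11, a family member without catalytic activity, fell by 0.45 (adjusted p = 0.0146). The median of the 13 was -0.04 against control tamoxifen, next to -0.02 over all genes.

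Of 17 partners of chloride secretion, 5 rose and 6 fell against control tamoxifen, and 4 rose and 5 fell against mutant NaCl. Best2, a bestrophin channel known for bicarbonate secretion in mouse colon, had levels of 9.23 to 9.71 in mutant tamoxifen mice, against 10.11 to 10.41 in mutant NaCl mice and 10.19 to 10.29 in control tamoxifen mice, and fell by 0.89 against control tamoxifen (limma, adjusted p = 0.000581). Clca4b, of a family that regulates calcium-activated chloride channels, had levels of 13.11 to 13.34 in mutant tamoxifen mice, against 10.87 to 11.68 in mutant NaCl mice and 9.94 to 12.00 in control tamoxifen mice, and rose by 2.19 against control tamoxifen (adjusted p = 0.00309). Probes of Clca genes with close copies may share signal. Guca2b, the peptide uroguanylin that stimulates chloride secretion through guanylate cyclase C, rose by 0.64 against control tamoxifen (adjusted p = 0.00289). Of 5 pump genes, the sodium pump subunit Atp1b3 rose by 0.22 (adjusted p = 0.0224) and Atp1b1 fell by 0.12 (adjusted p = 0.0302) against control tamoxifen. The list of secretion partners thus went both ways, where 7 of the 9 genes above went down.

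**Figure D4:**
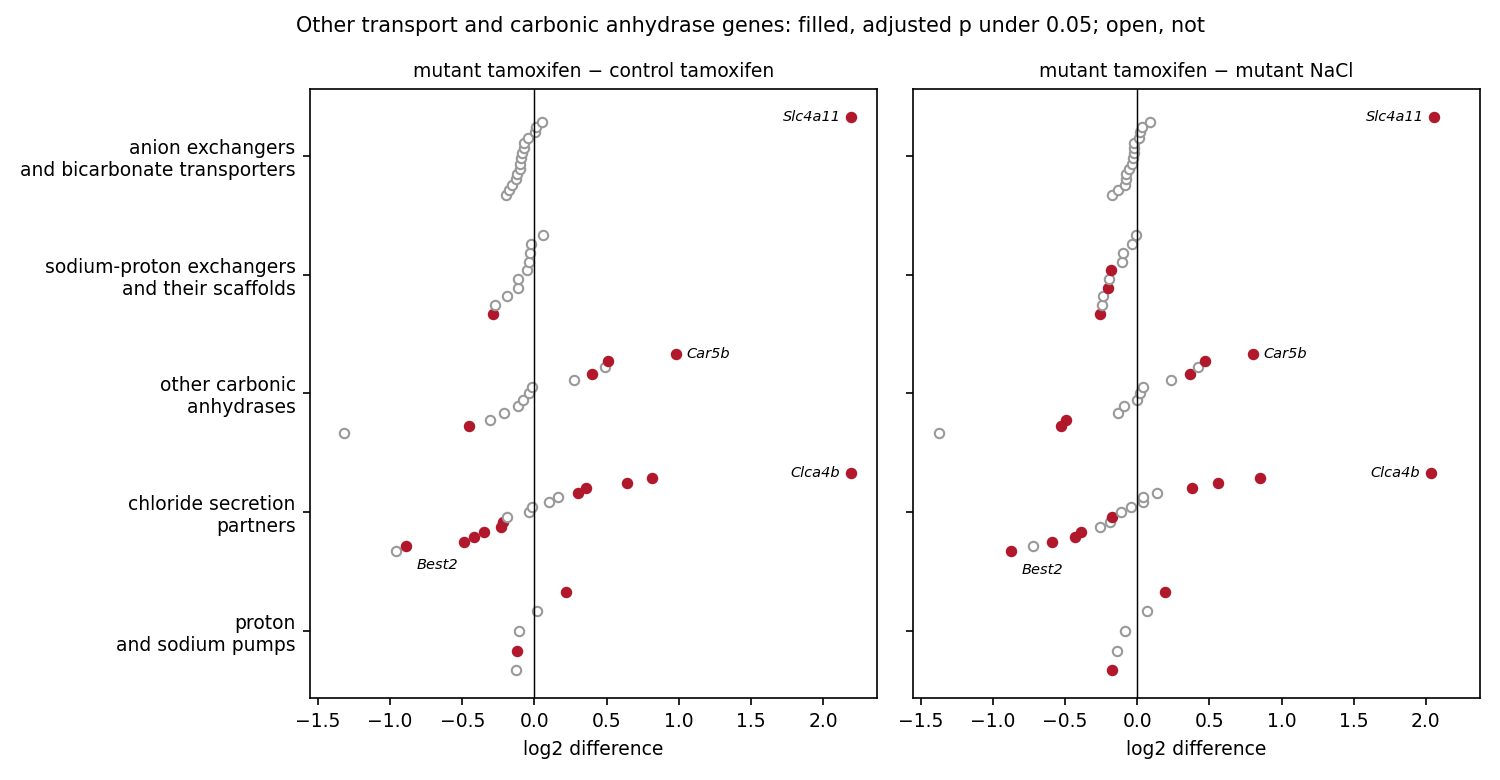
Fitted log2 differences (x axis) of 61 other transport and carbonic anhydrase genes in 5 lists, mutant tamoxifen minus control tamoxifen at left and minus mutant NaCl at right; each point is a gene, and filled points have an adjusted p under 0.05. Slc4a11 and Clca4b lie above 2 in both panels, Best2 at -0.89 and -0.87, and most points of the first 2 lists lie near 0.

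In tissue made of many cell types, fewer cells of a type and less RNA per cell cannot be told apart. The epithelium list (9 of 9 measured) had mean levels of 11.99 to 12.16 in mutant tamoxifen mice. Its mean levels were 11.87 to 11.93 in mutant NaCl mice and 11.87 to 11.96 in control tamoxifen mice. Of its 9 genes, 2 rose and 0 fell against control tamoxifen, and 4 rose and 0 fell against mutant NaCl. Cdx2, picked after its values were seen, had the largest fitted difference of the 9, at 0.62 and 0.83 in that order. Its arrays overlapped between groups, and the mean of the list leans on it. With each array shifted by its epithelium list, a setting chosen after the data were seen, the log2 difference against control tamoxifen was -1.84 for Slc26a3 and -2.41 for Slc4a4, and the median of all genes was -0.20. In that setting 7 of the 9 genes were called lower and none higher. Over all genes it called 51.3% lower and 5.62% higher, against 11.8% and 12.9% without the shift, so the count of 7 stands beside a much larger share. The surface colonocyte list (11 of 12 measured) had overlapping mean levels, 10.83 to 10.97 in mutant tamoxifen mice, against 10.84 to 11.02 in mutant NaCl mice and 10.73 to 10.93 in control tamoxifen mice. Within it 3 genes rose and 2 fell against control tamoxifen.

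Lists of other cells moved too. All 10 smooth muscle genes fell against control tamoxifen, with a mean level of 11.74 to 11.90 in mutant tamoxifen mice, against 12.13 to 12.41 in mutant NaCl mice and 12.28 to 12.42 in control tamoxifen mice. Of 10 neutrophil genes 7 rose, with a mean of 7.57 to 8.04 in mutant tamoxifen mice, against 7.01 to 7.09 in mutant NaCl mice and 6.97 to 7.21 in control tamoxifen mice. Of these 10 genes, 8 had mean levels under the median gene, and Ly6g, Mpo and Elane were not called. Of 9 crypt base and progenitor genes measured out of 10, 5 rose and 1 fell against control tamoxifen. Their mean was 9.29 to 9.40 in mutant tamoxifen mice, against 9.11 to 9.13 in mutant NaCl mice and 8.91 to 9.0 in control tamoxifen mice. Those that rose were the cell division genes Mki67, Top2a, Pcna and Mcm5, and Smoc2. Ascl2 fell, and Lgr5, Axin2 and Olfm4 were not called, so the count does not describe crypt base markers alone. Of 6 enteric neuron and glia genes measured out of 8, 4 fell against control tamoxifen, with a mean of 7.55 to 7.67 in mutant tamoxifen mice, against 7.80 to 7.88 in mutant NaCl mice and 7.85 to 7.93 in control tamoxifen mice. The part of these lists and of the epithelium list in the falls of the transport and carbonic anhydrase genes was not tested.

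Car1 and Car2 are also made by red blood cells. Of 10 red blood cell markers 3 were measured, Alas2, Slc4a1 and Epb42, all 3 with mean levels under the median gene, and their mean was 6.36 to 6.40 in mutant tamoxifen mice, against 6.33 to 6.42 in mutant NaCl mice and 6.34 to 6.77 in control tamoxifen mice, with none called. Squamous epithelium, which borders the rectum, varied within groups, with a mean of its 10 genes of 8.89 to 10.70 in mutant tamoxifen mice, against 9.26 to 10.58 in mutant NaCl mice and 6.85 to 10.69 in control tamoxifen mice, and 1 of the 10 rose against control tamoxifen. Goblet cell genes (7 of 8 measured) overlapped between groups, with a mean of 12.03 to 12.42 in mutant tamoxifen mice, against 12.12 to 12.37 in mutant NaCl mice and 12.18 to 12.43 in control tamoxifen mice, and 2 rose and 2 fell against control tamoxifen. Of 7 B and plasma cell genes measured out of 8, none was called.

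**Figure D5:**
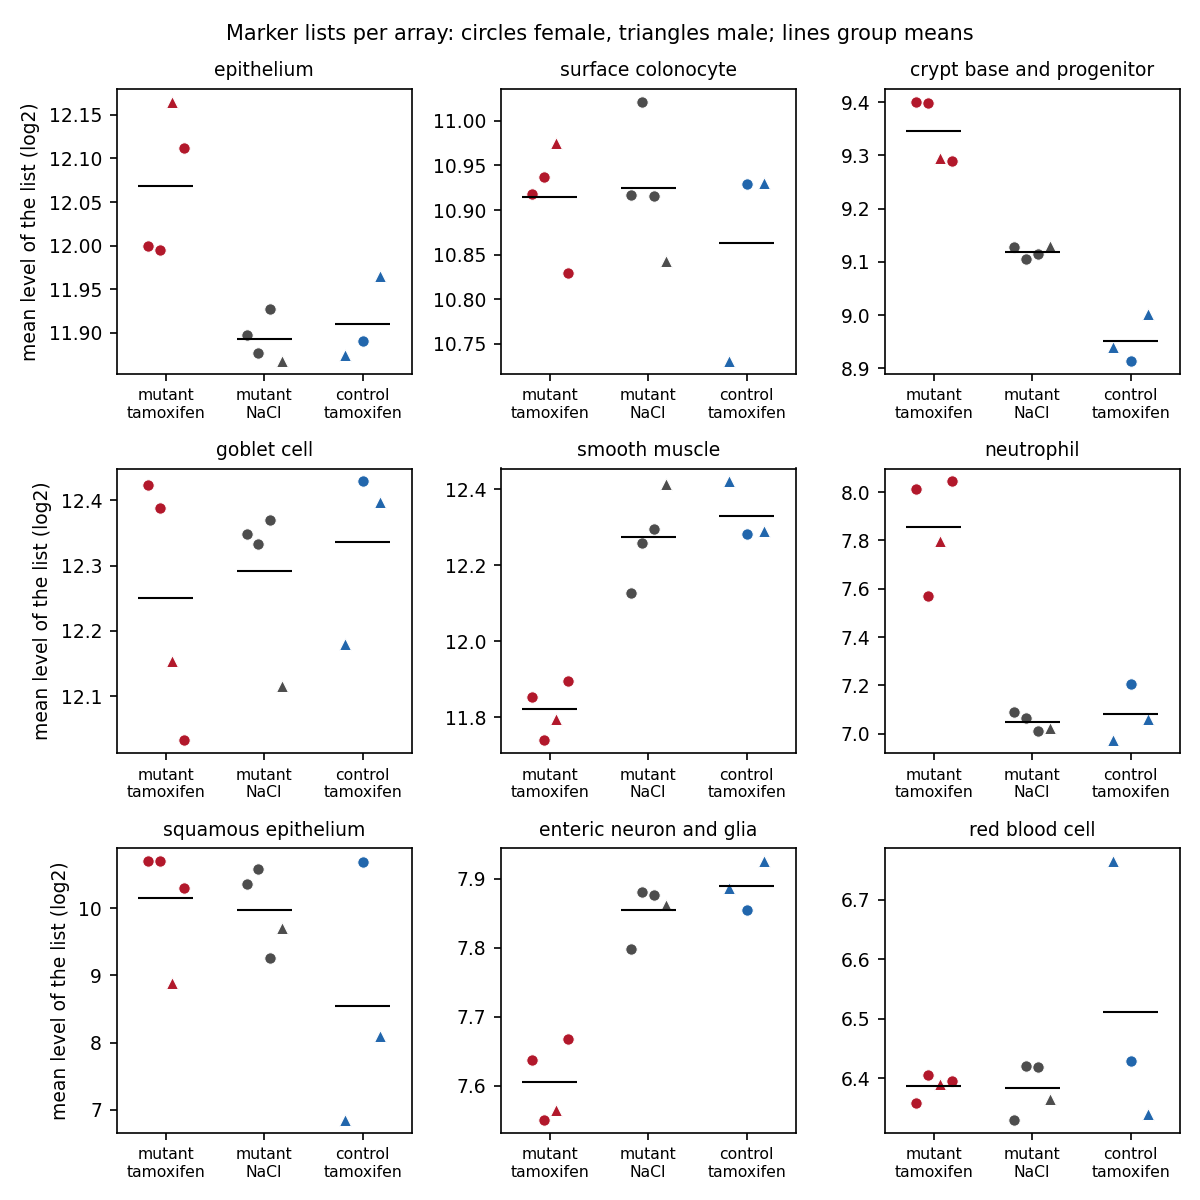
Mean log2 level of each cell type marker list on each array (y axis), mutant tamoxifen left of mutant NaCl and control tamoxifen; circles are females, triangles males, and lines are group means. Smooth muscle and enteric neuron and glia lists are lower, and neutrophil, crypt base and progenitor, and epithelium lists higher, on all 4 mutant tamoxifen arrays than on the other 7, while the surface colonocyte, goblet cell, squamous epithelium and red blood cell lists overlap.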

How the data were processed

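RNA from rectal mucosa was hybridised to 11 arrays. The authors deposited 1 log2 value per transcript cluster and array and, per the labels, made it with RMA in Affymetrix Expression Console. RMA subtracts background, brings all arrays to a common distribution and combines the probes of a transcript cluster, and is known to compress large differences. The series design text gives Command Console version 2.0 and Expression Console version 1.1, and Partek appears in the submitters' processing notes with no role stated. Genome build, scan dates and batches were not given in the sources used here. Of 35556 transcript clusters, the platform annotation names 21797 by 1 symbol, 1613 by several and does not list 12146. For 1001 genes with several clusters the one with the highest mean was used, which gave 19944 genes.

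A linear model with group and sex was fitted to all 11 arrays (limma 3.58.1, R 4.3.3), and variances were moderated along a trend on the mean level. Two-sided p-values were adjusted after Benjamini and Hochberg over the 19944 genes, and 0.05 was the threshold. The step was tested on simulated data. Replicate numbers name an array and pair nothing. The genes and lists were chosen with earlier results of these data known. Of other genes, at most 3 per list were named, those with the smallest p against control tamoxifen among the called, and the 3 nearest profiles for the 4 genes with the largest change, predicted genes left out. Alternatives were 11 settings of sex, arrays, filter, scaling, variance trend and cluster choice, and 11 arrays left out in turn.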

Additional observations from a re-analysis of the deposited data

Results flagged for a closer look

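Slc9a3 had a level of 7.37 in the second mutant tamoxifen mouse, a female, against 8.49, 8.58 and 8.65 in the other 3 mice of that group. The gap to the nearest of them took 0.876 of the group's whole range, which is past the 95% critical value of Dixon's test for 4 arrays. The test was run at both ends of the 2 groups of 4 arrays for each of the 9 genes, and at this level it marks some groups by chance. No other level of the 9 genes was marked. In the control tamoxifen group, which has too few arrays for that test, the third mouse had a Slc9a3 level of 9.85 beside 7.77 and 7.63.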

How the results depend on the processing

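Slc26a3, Slc26a2, Slc9a2, Slc4a4, Car2 and Car4 kept their direction and their call against both other groups in all 22 alternatives, with adjusted p of 0.0191 or less. Across them the log2 difference against control tamoxifen was -1.84 to -1.59 for Slc26a3, -2.47 to -2.04 for Slc4a4 and -1.04 to -0.64 for Slc9a2. Car1 lost its call in 1 of 22 against control tamoxifen and in 7 of 22 against mutant NaCl, where adjusted p reached 0.116. With female arrays alone, which leaves 1 control tamoxifen array, 1 member was higher in mutant tamoxifen than in control tamoxifen mice: Cftr, at 0.46 (adjusted p = 0.0294, range over the alternatives 0.0294 to 0.931), in a setting that called 3.94% of all genes higher. That lone array has the lowest Cftr level, 9.61, and is assumed to vary like the other groups. Slc9a3 took both signs among the alternatives, -0.65 to 0.55 against control tamoxifen, and was called in none of them. Of the 7 pairs, 0 passed against control tamoxifen alone, 7 against mutant NaCl alone, and 6 or 7 with each array left out. No paired analysis was possible because replicate numbers only name arrays. Group sizes of 3 and 4 limit what can be seen, and Slc9a3 most of all.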

Other observations

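Outside the chosen genes, with predicted genes left out, Cttnbp2 had the profile nearest to that of Cftr (root mean square difference 0.0641, 11 arrays). Nin (0.0657) and Txnrd3 (0.0704) were nearly as close, and the group means of Cftr lay between 9.90 and 10.08. Cttnbp2 is also the next gene to Cftr in the order of the chromosome, and a link between them was not tested. Cttnbp2 was picked after its values were seen. The genes nearest to Slc9a2 and Car2, likewise outside the rule for named genes, were Tmem171 (0.0778) and Retsat (0.0965).

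Within the surface colonocyte list, genes called against control tamoxifen went both ways, and they were picked after their values were seen. The water channel gene Aqp8 (log2 difference -1.31, limma adjusted p = 0.000396) and the phosphate transporter gene Slc20a1 (-1.19, adjusted p = 0.000108) fell. The keratin gene Krt20 (0.70, adjusted p = 0.00601), the bile acid and steroid transporter subunit gene Slc51b (1.17, adjusted p = 0.00102) and Tmigd1 (0.64, adjusted p = 0.000363) rose.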
